A study of Mus musculus with 20 samples.

Results

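Interferon-stimulated effector genes encode the proteins that carry out the antiviral and antigen-processing work of the interferon response. A list of 50 such mouse genes, set by name, was followed here among the 53379 gene identifiers of each library, and the Ifit, Gbp, Ifi200 and Irf families were left out of it. All 50 were found, and all 50 passed the filter on low counts. The list names genes and sets no threshold on a measured value, but it was chosen with earlier results of these data known.

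RNA-seq was available for 20 libraries of lineage-negative (Lin-) haematopoietic progenitor cells cultured for 3 days after infection with a murine stem cell virus (MSCV) retroviral vector. There were 5 groups of 4 libraries. Cells lacking the Gata2 -77 enhancer, a regulatory element 77 kb upstream of the haematopoietic transcription factor gene Gata2, carried a vector for GATA2, for the protein variant R307W, for the variant T354M, or a control vector, and are called -77KO cells with GATA2, with R307W, with T354M and -77KO controls. Wild-type cells with a control vector (WT controls) formed the last group. Every -77KO group, its controls included, carried the enhancer deletion, so the vectors were compared on that background alone. The labels of the GATA2, -77KO control and WT control libraries gave E14.5 fetal liver, the C57BL/6J strain, and a medium with IL-3 and SCF conditioned supernatants. The labels of the R307W and T354M libraries did not repeat these details, so that a difference in handling cannot be told apart from the variants. Nothing in the labels states whether replicates were separate cultures or embryos, and p-values then measure the spread between libraries, which may be technical.

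Interferons bind surface receptors whose kinases, JAK1 and TYK2, activate the transcription factor complex ISGF3, which enters the nucleus and binds the interferon-stimulated response element (ISRE), a short repeat of GAAA letters in the promoters of these genes. Stem and progenitor cells are known to express part of this gene set without infection, and monocytes, macrophages and dendritic cells express much of it strongly.

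Promoter windows of RefSeq (build GRCm38.p6, from 250 bases before to 50 after the annotated start) were at hand for 37 of the 50 genes. The ISRE letters searched were GAAA, 2 bases of any kind and GAAA again, or the reverse complement TTTC, 2 bases and TTTC. They occurred in 15 of these 37 genes (40.5%), against 1079 of 27025 genes with a window (3.99%). Excerpts ahead of the start site are given 5′ to 3′ on the gene's strand for genes whose levels are described below. Capitals mark the ISRE letters, overlapping matches joined. Isg15 (chr4:156200850-156200921, minus strand) holds a run of such matches, Bst2 (chr8:71537562-71537627, minus) and Ddx60 (chr8:61928009-61928086, plus) hold more than a single match, and Oas3 (chr5:120777700-120777759, minus), Trim30a (chr7:104465195-104465254, minus) and Slfn8 (chr11:83020824-83020883, minus) hold a single match each.
Isg15: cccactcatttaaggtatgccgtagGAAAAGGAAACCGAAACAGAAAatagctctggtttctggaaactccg
Bst2: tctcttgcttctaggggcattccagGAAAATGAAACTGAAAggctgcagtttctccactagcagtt
Ddx60: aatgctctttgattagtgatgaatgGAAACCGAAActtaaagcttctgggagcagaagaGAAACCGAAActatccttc
Oas3: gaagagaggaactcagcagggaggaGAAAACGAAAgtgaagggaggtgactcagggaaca
Trim30a: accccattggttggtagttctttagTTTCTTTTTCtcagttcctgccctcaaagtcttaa
Slfn8: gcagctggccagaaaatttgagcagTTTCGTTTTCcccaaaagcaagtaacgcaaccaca
The next 2 pairs are neighbouring copies and are shown because their promoters are nearly the same over these stretches and their transcripts share sequence. They are Oas1a (chr5:120907526-120907570, minus) with Oas1g (chr5:120887614-120887656, minus), and Phf11a (chr14:59297523-59297576, minus) with Phf11b (chr14:59341346-59341405, minus).
Oas1a: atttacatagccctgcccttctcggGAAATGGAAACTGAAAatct
Oas1g: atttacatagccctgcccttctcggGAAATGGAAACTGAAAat
Phf11a: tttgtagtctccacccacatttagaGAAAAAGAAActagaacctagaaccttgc
Phf11b: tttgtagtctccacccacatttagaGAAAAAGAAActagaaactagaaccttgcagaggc
Of the 50-base words of its annotated transcripts, Oas1a shared 57.6% with Oas1g, and Oas1g shared 45.2% with Oas1a. Phf11b shared 26.0% with Phf11a and 47.0% with any other gene, and Phf11a shared 22.6% with Phf11b and 35.2% with any other gene. In all, 7 of the 50 genes shared over 10% of these words with another gene. Besides these 2 pairs they were Slfn8 (14.6%), Herc6 (12.5%) and Rtp4 (11.6%). Estimated counts were fractional in all 20 libraries for 9 genes, including Slfn8, Herc6, Trim30a, Phf11d, Sp100 and Parp10. How the estimated counts of such genes were divided among copies is therefore uncertain. A match of letters is a description of the promoter and not a measured binding site.

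Each library held between 22330475 and 33245876 estimated counts, and mt-Rnr2, a mitochondrial ribosomal RNA, took 17.9% to 24.6% of them. Gata2 averaged 80.7 ± 37.3 CPM with GATA2, 54.8 ± 23.7 with R307W, 52.0 ± 19.7 with T354M, 5.79 ± 1.3 in -77KO controls and 44.3 ± 9.8 in WT controls (SD, n = 4 each; CPM are counts scaled by library size and composition). Vector and endogenous Gata2 transcripts cannot be told apart in these counts. Of 4 progenitor markers, Cd34 and Mecom rose and Kit and Myb fell in -77KO controls against WT controls. Their summed level was 622.3 to 661 CPM with GATA2, 719.2 to 770.4 with R307W, 828.5 to 962.8 with T354M, 606.3 to 674.4 in -77KO controls and 419.2 to 459.3 in WT controls. Replicate 4 stood apart in each vector group. It was the lowest of its group for 46 of the 50 genes with GATA2, 46 with R307W and 44 with T354M, whereas over all genes it was the lowest for 31.3%, 30.8% and 28.2%. In the same 3 libraries Gata2 was the highest of its group, at 132.1, 89.5 and 73.8 CPM. Among controls, -77KO replicate 1 was the highest of its group for 44 of the 50 genes and WT replicate 2 for 43.

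**Figure D1:**
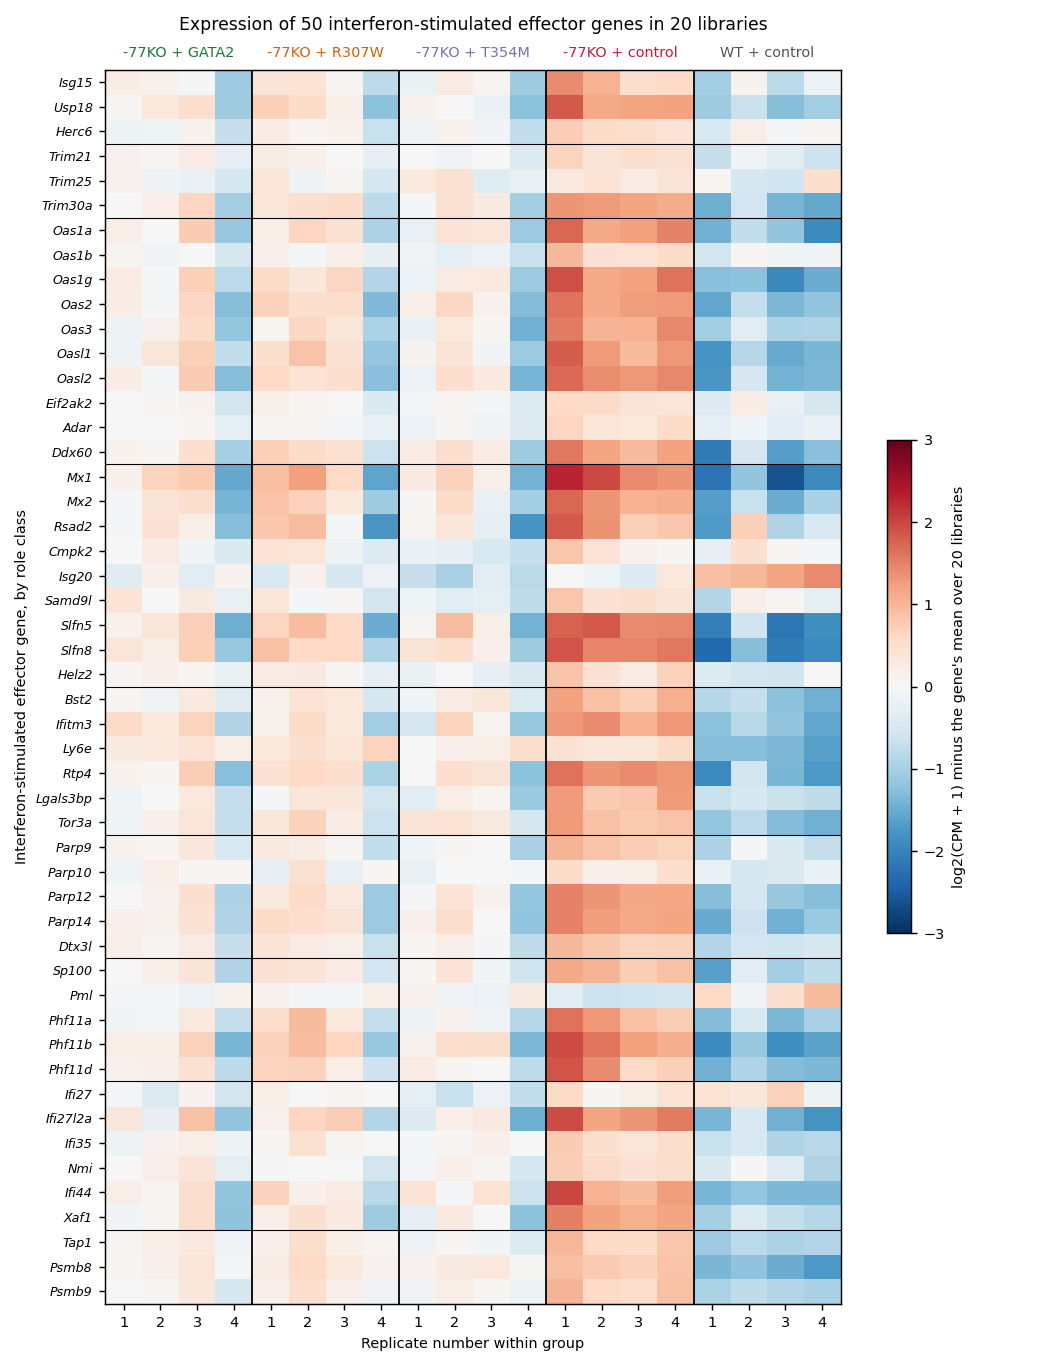
Expression of the 50 genes (rows, grouped by role) in the 20 libraries (columns, replicates 1 to 4 within each group), as log2(CPM + 1) minus the gene's mean over all libraries. The -77KO controls form the block of highest values for most rows, replicate 4 of each vector group is paler or bluer than its neighbours, and Pml and Isg20 run against the other rows.

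Loss of the -77 enhancer was accompanied by higher expression of most interferon-stimulated effector genes. In -77KO controls against WT controls, 45 of the 50 genes rose and 2 fell, where 20.1% of the 15835 genes tested rose and 23.2% fell (edgeR quasi-likelihood test, Benjamini-Hochberg adjusted p under 0.05 over all genes). The median log2 difference was 2.14 over the 50 genes and -0.051 over all genes. For 45 of the 50 genes all 4 -77KO control libraries lay above all 4 WT control libraries, as they did for 18.7% of all genes, and for 2 genes they lay below, as for 20.1% of all genes. The difference was at least 2-fold upward for 38 genes and at least 2-fold downward for 2. The share of all genes passing that minimum was not counted, so these counts describe the list alone. The log2 differences ran from -1.33 for Isg20 to 4.73 for Ifi44. Leaving out any single library gave 45 to 47 genes called in all, where 38.8% to 42.9% of all genes were called.

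The ISG15 system attaches a ubiquitin-like protein to other proteins during an interferon response. All 3 of its genes rose. Usp18, the protease that removes ISG15 and also dampens the type I receptor, had 44.5, 26.97, 28.2 and 28.6 CPM in -77KO controls, against 5.13, 7.12, 4.27 and 5.18 CPM in WT controls. Each -77KO control library was far above each WT control library, and the first held the most. The log2 difference was 2.57 (SE 0.42, adjusted p = 7.18e-05). Isg15, the modifier itself, rose by 1.85 on the log2 scale, and Herc6, the ligase that attaches it in mouse cells, by 0.63.

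Of the 3 TRIM ubiquitin ligases, 2 rose. Trim30a, which in mouse restrains Toll-like receptor signalling, had 200.6, 194.1, 181 and 173.9 CPM in -77KO controls and 28.1, 52.9, 29.3 and 26.9 CPM in WT controls, a 5.47-fold difference (adjusted p = 2.12e-05). WT replicate 2 was the highest WT library and still lay well below every -77KO control. Trim21, a cytosolic antibody receptor, rose by 0.97 on the log2 scale. Trim25, which acts on the RNA sensor RIG-I, was not called, with 35.7, 39.04, 34.7 and 38.01 CPM in -77KO controls and 30.04, 20.5, 18.8 and 41.2 CPM in WT controls (log2 difference 0.41, SE 0.24, adjusted p = 0.171). Its WT values spread widely and overlapped the -77KO controls.

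All 10 genes for enzymes that sense or alter double-stranded RNA rose, by 0.69 for Eif2ak2 to 3.79 for Oas1g on the log2 scale. The oligoadenylate synthetases make the second messenger that switches on RNase L. Oas1g, an Oas1 copy, had 21.3, 11.9, 12.3 and 16.9 CPM in -77KO controls and 1.44, 1.47, 0.516 and 1.07 CPM in WT controls, with no overlap (log2 difference 3.79, SE 0.50, adjusted p = 5.85e-06). The log2 differences of the other synthetase family members were 2.84 for Oas1a, 1.04 for Oas1b, 2.68 for Oas2, 2.17 for Oas3, 3.44 for Oasl1 and 2.80 for Oasl2. Adar, which deaminates adenosine in double-stranded RNA, had 103.6, 84.9, 81.5 and 96.3 CPM in -77KO controls and 53.8, 62.3, 52.6 and 56.2 CPM in WT controls. These groups were also apart, but the fold was smaller, at 1.63 (adjusted p = 2.2e-05). Eif2ak2, the kinase PKR that halts translation on binding double-stranded RNA, was 1.61-fold higher, and the helicase gene Ddx60 6.48-fold higher. The annotation lists Oas1b, and likewise Mx2, as a polymorphic pseudogene. Adar lies across part of Chrnb2 on the opposite strand, and the sources used here do not state whether counting used strand.

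Among 9 genes for inhibitors of viral genomes and replication, 7 rose, 1 fell and 1 was not called. Mx1, a dynamin-like GTPase whose allele is defective in C57BL/6 and many other laboratory strains, had 82.1, 65.97, 44.7 and 41.4 CPM in -77KO controls and 2.696, 6.48, 1.78 and 3.53 CPM in WT controls, a 16.2-fold difference (adjusted p = 5.67e-05). Slfn8, of the Schlafen family, had 82.9, 60.98, 61.5 and 66.3 CPM in -77KO controls and 3.48, 8.34, 4.32 and 4.996 CPM in WT controls, a 12.9-fold difference (adjusted p = 3.05e-06). For both genes every -77KO control library was several-fold above the highest WT control. Mx2 rose by 3.29, Slfn5 by 3.22, Rsad2 (viperin) by 1.62, Helz2 by 0.95 and Samd9l by 0.74 on the log2 scale. Cmpk2, a mitochondrial nucleotide kinase, had 56.2, 41.4, 33.5 and 31.8 CPM in -77KO controls and 25.9, 43.6, 31.8 and 30.4 CPM in WT controls. The groups overlapped and no difference was called (log2 difference 0.31, SE 0.22, adjusted p = 0.268). Cmpk2 (chr12:26469204-26479837, plus strand, mm10) and Rsad2 (chr12:26442746-26456452, minus strand) are neighbours.

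Isg20, a 3′ to 5′ RNA exonuclease, was 1 of the 2 genes that fell. It had 4.93, 4.48, 3.54 and 6.395 CPM in -77KO controls, against 10.3, 10.9, 12.5 and 14.9 CPM in WT controls. Every -77KO control library lay below every WT control library (log2 difference -1.33, SE 0.23, adjusted p = 0.000116). The other was Pml, the organiser of the PML nuclear bodies, with 24.3, 19.2, 19.5 and 20.5 CPM in -77KO controls and 46.4, 28.4, 43.1 and 59.1 CPM in WT controls. The WT values of Pml were spread, with replicate 2 the lowest, and none overlapped (log2 difference -1.08, SE 0.16, adjusted p = 2.42e-05). Isg20 lies at chr7:78913424-78920396 and Pml at chr9:58218076-58249786 (mm10).

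The rest of the nuclear body and PHF11 group rose. Phf11d, of a PHD-finger family expanded in mouse, had 14.97, 10.7, 5.55 and 6.18 CPM in -77KO controls and 0.609, 1.33, 0.751 and 0.698 CPM in WT controls. The -77KO controls varied among themselves, with replicates 1 and 2 above the other two, yet all exceeded the WT controls (log2 difference 3.47, SE 0.47, adjusted p = 9.28e-06). Phf11a and Phf11b rose by 3.82 and 3.81, and Sp100, another nuclear body protein, by 1.86.

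All 6 genes for membrane and secretory proteins rose. Ly6e, a GPI-anchored surface protein that restricts coronavirus entry in mouse, had 583.8, 552.4, 549.3 and 628.1 CPM in -77KO controls, against 176.1, 178.8, 170.4 and 138.2 CPM in WT controls. The spread within each group was small beside the gap between them, and the difference was 3.49-fold (adjusted p = 8.58e-10). Bst2, or tetherin, which holds budding virions at the surface, had 46.4, 36.5, 32.6 and 41.9 CPM in -77KO controls and 10.4, 11.6, 7.79 and 6.61 CPM in WT controls, 4.33-fold apart (adjusted p = 6.96e-07). Log2 differences were 2.52 for Ifitm3, which blocks viral fusion in endosomes, 2.95 for Rtp4, 2.30 for Tor3a and 1.74 for Lgals3bp.

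The 5 genes for ADP-ribosyltransferases and the partner ligase DTX3L all rose. Parp14 had 165.6, 140.5, 131.1 and 135 CPM in -77KO controls and 19.9, 37.9, 20.8 and 26.8 CPM in WT controls, 5.43-fold apart (adjusted p = 3.44e-05). Parp12 had 64.2, 56.9, 50.6 and 50.4 CPM in -77KO controls and 8.48, 15.1, 9.48 and 8.49 CPM in WT controls, 5.36-fold apart (adjusted p = 3.69e-05). Both encode mono-ADP-ribosyltransferases, and in both WT replicate 2 was the highest WT library without reaching the -77KO controls. Parp9 and Dtx3l, which overlap on opposite strands and whose proteins form a complex, rose by 1.34 and 1.44, and Parp10, which overlaps Plec, by 0.72 on the log2 scale.

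Of 6 IFI proteins and interactors, 5 rose. Ifi44 had the largest difference of the 50 genes from a very low WT level, with 11.6, 5.403, 5.02 and 6.43 CPM in -77KO controls and 0.217, 0.393, 0.235 and 0.2204 CPM in WT controls (log2 difference 4.73, SE 0.64, adjusted p = 9.42e-06). Ifi35, which binds the protein of Nmi, had 37.2, 30.3, 28.1 and 31.7 CPM in -77KO controls and 13.1, 15.4, 10.98 and 11.8 CPM in WT controls, 2.48-fold apart (adjusted p = 2.47e-07). Nmi rose by 1.02 and Xaf1, an antagonist of the apoptosis inhibitor XIAP, by 2.18 on the log2 scale. Ifi27 was not called, with 14.9, 9.801, 10.97 and 12.9 CPM in -77KO controls and 13.04, 12.4, 15.9 and 8.41 CPM in WT controls (log2 difference -0.03, SE 0.20, adjusted p = 0.915). Its values overlapped throughout, whereas its neighbour and relative Ifi27l2a (chr12:103442167-103443680, minus strand, mm10) rose by 3.07.

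All 3 antigen-processing genes, which lie side by side in the MHC region of chromosome 17, rose. Psmb8, an immunoproteasome subunit, had 101, 92.9, 87.2 and 98.7 CPM in -77KO controls and 20.1, 22.9, 18.6 and 15.5 CPM in WT controls, 4.93-fold apart (adjusted p = 3.82e-10). The other immunoproteasome subunit gene, Psmb9, rose by 1.80 and the peptide transporter gene Tap1, which overlaps it on the opposite strand, by 1.73 on the log2 scale.

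**Figure D2:**
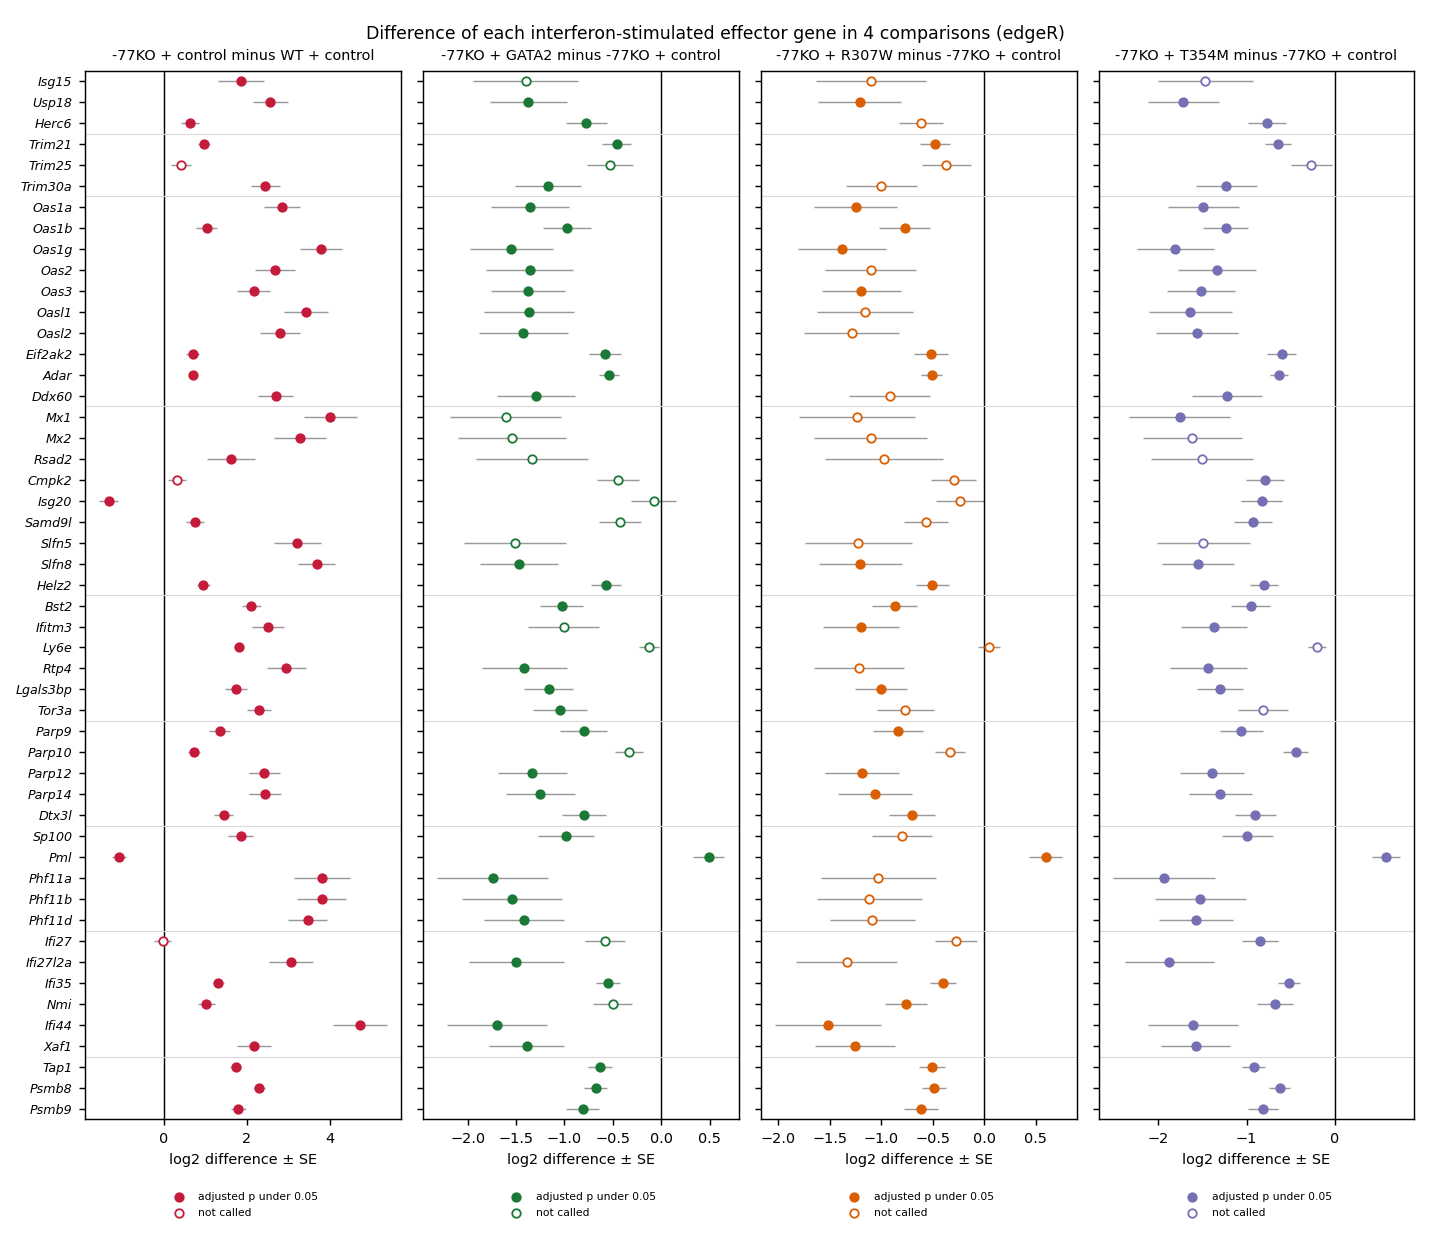
Log2 difference ± SE of each of the 50 genes in 4 comparisons, from left to right -77KO controls minus WT controls, and -77KO cells with GATA2, with R307W and with T354M, each minus -77KO controls. Filled points passed the test: 45 genes to the right of 0 and 2 to the left in the first panel, and 35, 24 and 42 genes to the left with 1 (Pml) to the right in the vector panels.

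Compared per transcript length, as TPM, which scale counts by length and depth, the most abundant of the 50 genes in -77KO controls was Ly6e, at 564.6 ± 12.3 TPM, against 154 ± 19 TPM in WT controls (SD, n = 4 each). Ifitm3 came next with 193.4 ± 24.4 TPM in -77KO controls and 31.8 ± 7.5 TPM in WT controls. Ifi27l2a, Psmb8, Lgals3bp and Bst2 followed with group means of 67.6 ± 16.1, 61.6 ± 3.79, 59.03 ± 6.9 and 53.7 ± 7.28 TPM in -77KO controls, and these 4 neighbours lay within their spread. Ifi44, with the largest difference, had the lowest level, at 2.47 ± 1.03 TPM in -77KO controls and 0.143 ± 0.152 TPM in WT controls.

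Many of the genes that were higher in -77KO controls were lower in -77KO cells that carried GATA2 or a variant. With GATA2, 35 of the 50 genes fell and 1 rose against -77KO controls, where 8.23% of all genes tested fell and 11% rose. With R307W, 24 fell and 1 rose, where 7.48% of all genes fell and 10% rose. With T354M, 42 fell and 1 rose, where 8.11% of all genes fell and 9.26% rose. The median log2 differences were -1.10 with GATA2, -0.95 with R307W and -1.23 with T354M. These comparisons use the same 4 -77KO control libraries and are set side by side, not as independent results. All 4 vector libraries lay below all 4 -77KO controls for 43 genes with GATA2, 38 with R307W and 46 with T354M, as they did for 14%, 13.1% and 12.4% of all genes. They lay above for Pml alone in each comparison, as they did for 14.3%, 13.9% and 12.5% of all genes.

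These counts depended on single libraries. Without replicate 4 of the vector group alone, the genes called in all numbered 7 of 50 with GATA2, 4 of 50 with R307W and 19 of 50 with T354M, where 9.77%, 7.91% and 8.68% of all genes were called. The count with R307W was then near the share of all genes. The median log2 differences of the 50 genes were then -0.93 with GATA2, -0.69 with R307W and -1.03 with T354M. With replicate 4 left out of every group at once, these medians were -0.91, -0.73 and -1.02. With GATA2 they numbered 16 without -77KO control replicate 1, where 14.4% of all genes were called. Without GATA2 replicates 1 and 2 they numbered 18 and 22, where 13.5% and 13.9% were called. With R307W they numbered 7, 15, 16 and 9 without -77KO control replicates 1 to 4. The shares of all genes called were then 12.5%, 14.2%, 12.4% and 11%, and the first count was near its share. Without R307W replicate 3 they numbered 14, where 15.5% of all genes were called. With T354M they numbered 28 without -77KO control replicate 1 and 27 without T354M replicate 1, where 12.1% and 10.9% were called. When replicate 4 was left out of every group at once, 38 genes were called with GATA2, 25 with R307W and 42 with T354M, where 12.6%, 9.55% and 10.6% of all genes were called, and 48 in -77KO controls against WT controls, where 37.1% were.

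Of the 10 double-stranded RNA enzyme genes, 10 fell with GATA2, 6 with R307W and 10 with T354M. Oas1g had 5.87, 4.57, 8.58 and 2.33 CPM with GATA2, 7.69, 6.32, 7.88 and 2.14 with R307W and 4.12, 5.94, 6.09 and 1.71 with T354M, against 21.3, 11.9, 12.3 and 16.9 in -77KO controls. It was 2.92-fold, 2.61-fold and 3.498-fold lower with GATA2, R307W and T354M (adjusted p = 0.0179, 0.0332 and 0.00815). No vector library reached the lowest -77KO control, and replicate 4 was the lowest of each vector group. Adar had 64.6, 64.7, 68.5 and 54.6 CPM with GATA2, 67.3, 69.8, 64.4 and 55.8 with R307W and 58.4, 67.4, 61.04 and 50 with T354M, against 103.6, 84.9, 81.5 and 96.3 in -77KO controls. Its log2 differences were -0.54, -0.51 and -0.63, all called (adjusted p = 0.00131, 0.00244 and 0.000374), and its replicate 4 values stood closer to the others than those of Oas1g. The 4 genes of this class that fell with GATA2 and T354M and were not called with R307W were Oas2, Oasl1, Oasl2 and Ddx60, at -1.10, -1.16, -1.29 and -0.92 on the log2 scale with R307W.

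In the ISG15 system, Usp18 had 12.03, 15.03, 17.4 and 5.11 CPM with GATA2, 19.99, 17.8, 13.4 and 4.44 with R307W and 12.7, 11.8, 10.1 and 4.48 with T354M, against 44.5, 26.97, 28.2 and 28.6 in -77KO controls. It fell with each vector, at log2 differences of -1.37, -1.21 and -1.72 (adjusted p = 0.0223, 0.0426 and 0.00699), and no vector library overlapped these controls. Its replicate 4 in each vector group lay within the range of the WT controls. Isg15 was not called with any vector, at log2 differences of -1.40 with GATA2, -1.10 with R307W and -1.47 with T354M, although its groups did not overlap. Herc6 fell with GATA2 (-0.77) and T354M (-0.76) and stood at -0.61 with R307W.

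Trim30a had 80.1, 90.6, 123.7 and 38.6 CPM with GATA2, 102.4, 110.5, 116.5 and 45.6 with R307W and 76.6, 109.2, 95.1 and 38.9 with T354M, against 200.6, 194.1, 181 and 173.9 in -77KO controls. It fell with GATA2 and T354M (adjusted p = 0.0232 and 0.0195) and missed the threshold with R307W (adjusted p = 0.0505), although each vector library was below each -77KO control. The lowest library of each vector group lay within the range of the WT controls. Trim21 fell with every vector, at log2 differences of -0.46, -0.48 and -0.65 with GATA2, R307W and T354M. Trim25 had 31.6, 25.8, 25.2 and 19.7 CPM with GATA2, 37.6, 25.9, 30.96 and 20.1 with R307W and 35.7, 39.9, 22.5 and 24.7 with T354M, against 35.7, 39.04, 34.7 and 38.01 in -77KO controls. No difference of Trim25 was called (adjusted p = 0.132, 0.31 and 0.496).

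Of the 9 replication inhibitor genes, 2 fell with GATA2, 2 with R307W and 6 with T354M. Slfn8 had 27.9, 24.96, 36.1 and 9.25 CPM with GATA2, 40.6, 33.03, 33.5 and 11.02 with R307W and 28.7, 30.4, 24.1 and 9.79 with T354M, against 82.9, 60.98, 61.5 and 66.3 in -77KO controls. It was 2.77-fold, 2.304-fold and 2.92-fold lower (adjusted p = 0.0171, 0.0465 and 0.014). Mx1 had 18.02, 25.9, 28.1 and 4.83 CPM with GATA2, 30.9, 39.2, 24.8 and 4.68 with R307W and 19.5, 26.3, 18.3 and 5.35 with T354M, against 82.1, 65.97, 44.7 and 41.4 in -77KO controls. Its differences were large and variable, -1.61 (SE 0.57, adjusted p = 0.0555), -1.24 (SE 0.57, adjusted p = 0.139) and -1.76 (SE 0.57, adjusted p = 0.0414) on the log2 scale, and T354M alone passed. In each vector group, replicate 4 of Mx1 was several-fold below the other 3 and within the range of the WT controls.

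Cmpk2 and Isg20 passed the test against -77KO controls with T354M alone; the vectors are tested against each other further on. Cmpk2 had 30.98, 36.7, 29.3 and 22.6 CPM with GATA2, 41.6, 40.4, 27.5 and 23.2 with R307W and 26.9, 25.9, 22.4 and 18.8 with T354M, against 56.2, 41.4, 33.5 and 31.8 in -77KO controls. Its log2 differences were -0.45, -0.30 and -0.79 (adjusted p = 0.165, 0.374 and 0.0177), and the T354M libraries alone were clear of the controls. Isg20 had 3.62, 5.59, 3.71 and 5.45 CPM with GATA2, 3.32, 5.55, 3.26 and 4.32 with R307W and 2.69, 2.05, 3.75 and 2.42 with T354M, against 4.93, 4.48, 3.54 and 6.395 in -77KO controls. It fell with T354M (-0.83, adjusted p = 0.0206), where the highest library overlapped the controls, and stood at -0.08 with GATA2 and -0.23 with R307W. The -77KO controls were themselves below WT controls for Isg20.

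**Figure D3:**
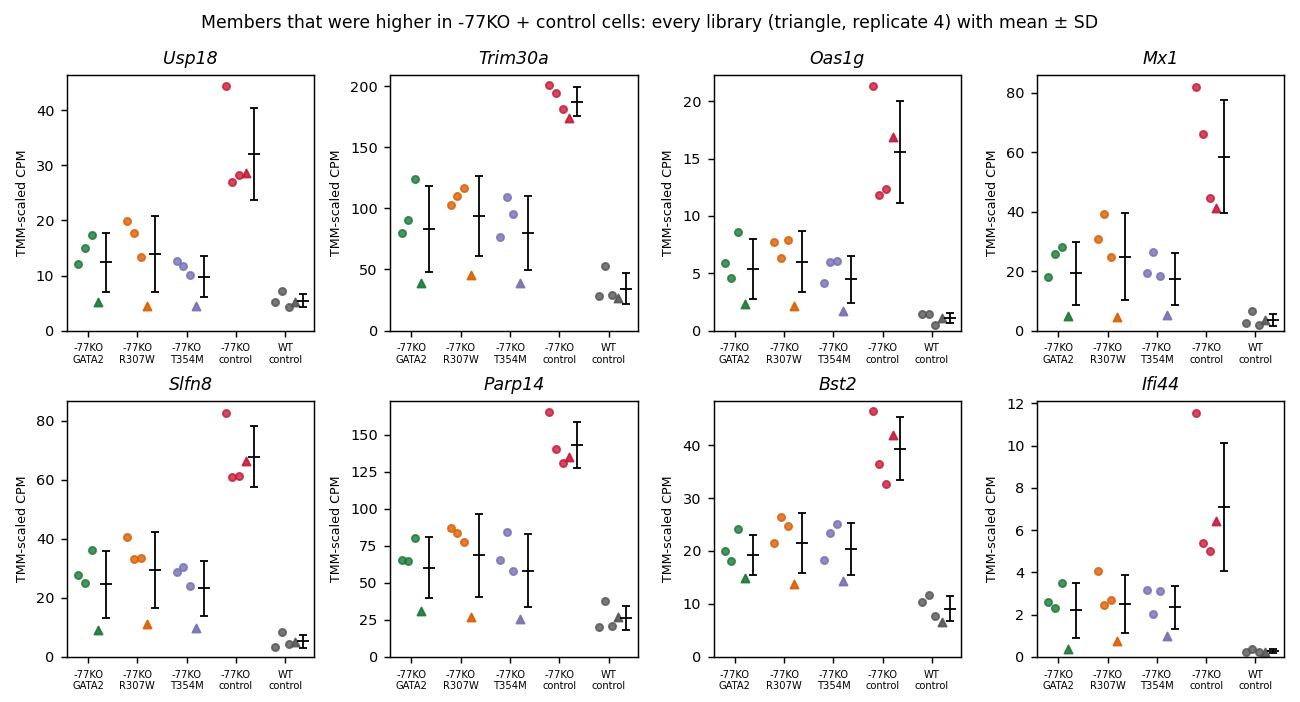
CPM of 8 genes that were higher in -77KO controls than in WT controls, 1 point per library, with the mean and SD beside each group; triangles are replicate 4. The means of the vector groups lie between those of the -77KO and WT controls, and the replicate 4 triangles sit at the bottom of each vector group. For Usp18, Trim30a, Mx1 and Parp14 these triangles lie within the range of the WT controls in every vector group.

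Of the 6 membrane and secretory genes, 4 fell with GATA2, 3 with R307W and 4 with T354M, and Ly6e was not called with any vector. Ly6e had 520.5, 538.8, 575.2 and 486.4 CPM with GATA2, 540.9, 605, 557.6 and 687.4 with R307W and 428.2, 481.5, 498.8 and 601.8 with T354M, against 583.8, 552.4, 549.3 and 628.1 in -77KO controls. The groups overlapped, and log2 differences were -0.13 (SE 0.11, adjusted p = 0.472), 0.05 (SE 0.11, adjusted p = 0.806) and -0.20 (SE 0.11, adjusted p = 0.208). Replicate 4 was the highest library of Ly6e with R307W and T354M, and the lowest with GATA2. Bst2 had 19.9, 18.2, 24.1 and 14.98 CPM with GATA2, 21.4, 26.4, 24.6 and 13.7 with R307W and 18.4, 23.4, 25.1 and 14.4 with T354M, against 46.4, 36.5, 32.6 and 41.9 in -77KO controls. It fell with each vector, to 2.04-fold, 1.83-fold and 1.94-fold lower levels (adjusted p = 0.0031, 0.0108 and 0.00585). Lgals3bp also fell with every vector, Ifitm3 with R307W and T354M, Rtp4 with GATA2 and T354M, and Tor3a with GATA2.

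Parp14 had 65.2, 64.9, 80.1 and 31.1 CPM with GATA2, 86.98, 83.4, 77.4 and 27.1 with R307W and 65.6, 84.5, 57.97 and 25.3 with T354M, against 165.6, 140.5, 131.1 and 135 in -77KO controls. It fell 2.37-fold, 2.08-fold and 2.45-fold (adjusted p = 0.0208, 0.0472 and 0.0186). Parp12 had 21.7, 24.4, 31 and 11.2 CPM with GATA2, 27.2, 33.5, 27.04 and 9.87 with R307W and 21.3, 29.8, 24.4 and 9.25 with T354M, against 64.2, 56.9, 50.6 and 50.4 in -77KO controls. It fell 2.52-fold, 2.28-fold and 2.62-fold (adjusted p = 0.0142, 0.0276 and 0.0122). Neither gene overlapped the -77KO controls in any vector group. For both, the lowest library of each vector group lay within the range of the WT controls. Parp9 and Dtx3l also fell with all 3 vectors, and Parp10 with T354M.

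Pml rose with every vector. It had 28.9, 29.3, 26.7 and 32.8 CPM with GATA2, 32.7, 29.03, 29.4 and 35.2 with R307W and 32.8, 28.5, 26.8 and 36.6 with T354M, against 24.3, 19.2, 19.5 and 20.5 in -77KO controls. All 12 vector libraries exceeded all 4 controls, and log2 differences were 0.49 (SE 0.16, adjusted p = 0.037), 0.60 (SE 0.16, adjusted p = 0.0157) and 0.58 (SE 0.16, adjusted p = 0.0183). Replicate 4, the lowest library for most of the 50 genes, was the highest for Pml in each vector group. Phf11d had 3.73, 3.84, 4.95 and 1.51 CPM with GATA2, 5.86, 5.98, 4.004 and 1.81 with R307W and 4.16, 3.63, 3.28 and 1.55 with T354M, against 14.97, 10.7, 5.55 and 6.18 in -77KO controls. It fell with GATA2 and T354M (adjusted p = 0.0232 and 0.0149) and overlapped the controls with R307W (adjusted p = 0.0743). Sp100, Phf11a and Phf11b were likewise called with GATA2 and T354M and not with R307W, where their log2 differences were -0.80, -1.03 and -1.12.

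Ifi44 had 2.62, 2.32, 3.49 and 0.377 CPM with GATA2, 4.07, 2.47, 2.68 and 0.755 with R307W and 3.18, 2.05, 3.14 and 0.999 with T354M, against 11.6, 5.403, 5.02 and 6.43 in -77KO controls. It fell 3.23-fold, 2.87-fold and 3.04-fold (adjusted p = 0.0278, 0.0472 and 0.0376). Replicate 4 with GATA2 lay within the range of the WT controls. Ifi35 had 19.2, 23.7, 24.7 and 19.4 CPM with GATA2, 22.2, 29.8, 22.99 and 21.6 with R307W and 21.1, 22, 24.2 and 21.6 with T354M, against 37.2, 30.3, 28.1 and 31.7 in -77KO controls. It fell by a small amount with each vector, to log2 differences of -0.55, -0.40 and -0.52 (adjusted p = 0.0057, 0.0375 and 0.00904), and R307W replicate 2 overlapped the controls. Ifi27 had 9.13, 6.89, 10.4 and 6.14 CPM with GATA2, 11.1, 9.56, 10.2 and 9.45 with R307W and 7.75, 5.596, 8.4 and 5.28 with T354M, against 14.9, 9.801, 10.97 and 12.9 in -77KO controls. It fell with T354M (-0.85, adjusted p = 0.00816) and was not called with GATA2 (-0.58, adjusted p = 0.0528) or R307W (-0.27, adjusted p = 0.385).

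Tap1, Psmb8 and Psmb9 fell with each vector. Psmb8 had 56.5, 60.1, 69.2 and 52.2 CPM with GATA2, 62.8, 81.9, 66.9 and 58.97 with R307W and 59.3, 64.5, 67.7 and 55.4 with T354M, against 101, 92.9, 87.2 and 98.7 in -77KO controls. No library overlapped, and its log2 differences were -0.67, -0.49 and -0.62 (adjusted p = 0.000646, 0.00872 and 0.0015). Psmb8 stayed well above the WT controls in all vector groups.

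**Figure D4:**
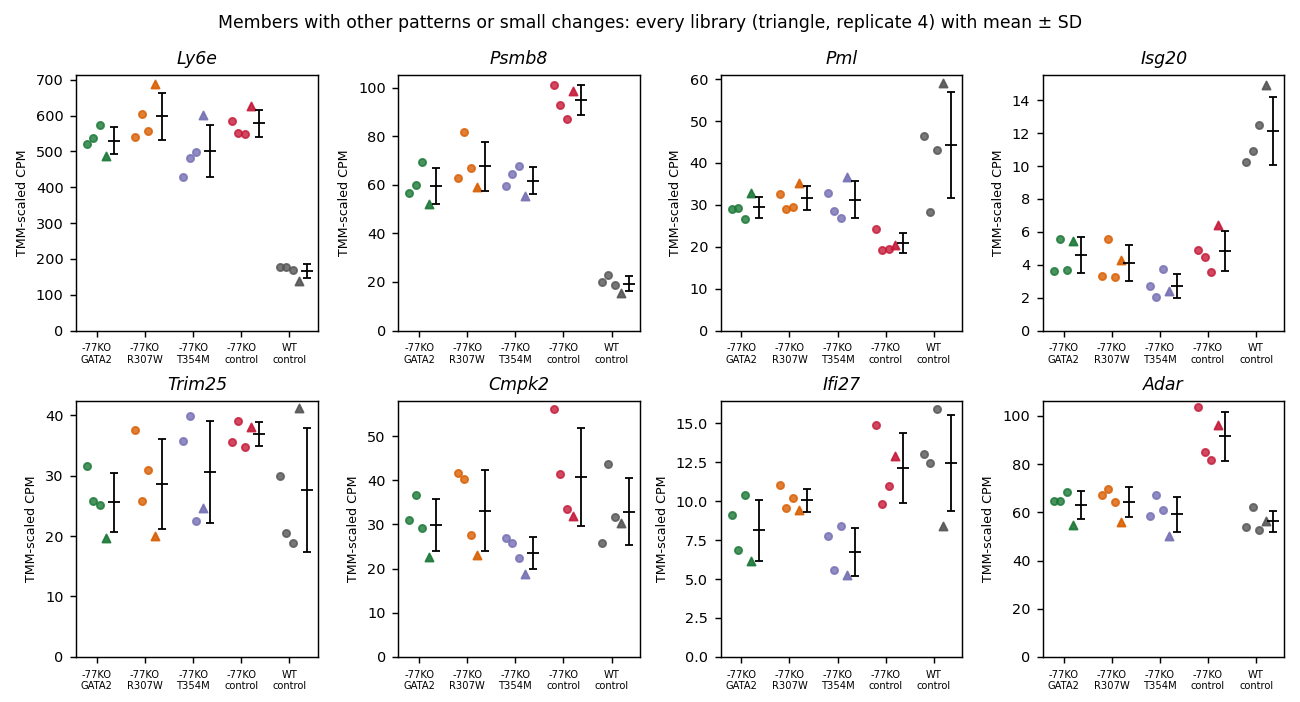
CPM of 8 genes with other patterns or small changes, 1 point per library, with the mean and SD beside each group; triangles are replicate 4. Ly6e overlaps the -77KO controls in every vector group, the group means of Pml and Isg20 are below that of WT controls in every -77KO group, and Trim25, Cmpk2 and Ifi27 overlap between -77KO and WT controls.

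Few of these genes separated the vectors from each other. With R307W against GATA2 none of the 50 genes was called by edgeR or by DESeq2, where 1.73% and 2.72% of all genes were called (median log2 difference 0.16). None had an unadjusted edgeR p under 0.05, and the share of all genes at that threshold was not counted. With T354M against GATA2 only Isg20 was called, and it fell (-0.75, SE 0.23, adjusted p = 0.0472), where 6.14% of all genes fell and 3.86% rose; the median log2 difference was -0.11. The 2 groups of Isg20 values overlapped, and the call was lost without GATA2 replicate 2 or 4 or T354M replicate 1, 2 or 4, at log2 differences of -0.66, -0.66, -0.74, -0.66 and -0.72 and adjusted p of 0.131, 0.163, 0.103, 0.13 and 0.109. With R307W against T354M none of the 50 was called by edgeR, where 3.49% of all genes were (median log2 difference 0.26). DESeq2 called 1, where 4.9% of all genes were called. An unadjusted edgeR p under 0.05 was found for 5 of the 50, and the share of all genes at that threshold was likewise not counted. A p above the threshold does not show that the vectors act alike.

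Same-numbered libraries of the 3 vector groups, and of GATA2 and the -77KO controls, deviated together. Among the vector groups a library was not always closest to its own number. A fit with the replicate number as a block gave more calls. Fitted this way over the 16 -77KO libraries, 47 genes were called with GATA2 against -77KO controls, where 34% of all genes were called, against 19.2% without the block. Genes that had missed the threshold and passed it there included Isg15, Trim25, Mx1, Cmpk2 and Ifi27, at log2 differences of -1.58, -0.57, -1.88, -0.45 and -0.61 (adjusted p = 0.00159, 0.0137, 0.000988, 0.00451 and 0.00414), while Isg20 (adjusted p = 0.792), Ly6e (0.269) and Parp10 (0.0629) remained uncalled. The same fit called 46 genes with R307W and 49 with T354M against -77KO controls, where 34.5% and 32.2% of all genes were called. Trim30a, Oas2, Oasl1, Oasl2, Ddx60, Sp100, Phf11a, Phf11b and Phf11d, not called with R307W without the block, were among the 46. Same-numbered libraries of these variants and -77KO controls did not all correlate above 0.1. In the same fit, Cmpk2, Isg20 and Samd9l were lower with T354M than with GATA2, at log2 differences of -0.37, -0.74 and -0.52 (adjusted p = 0.0231, 0.0489 and 0.000399); these were 3 of the 50 genes, where 18.7% of all genes were called. Cmpk2, Samd9l, Ifi27 and Tap1 were higher with R307W than with T354M, at 0.48, 0.35, 0.61 and 0.43 (adjusted p = 0.01, 0.0118, 0.0145 and 0.0488). These were 4 of the 50, near the 8.53% of all genes that were called.

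Vector-carrying -77KO cells were also set against WT controls. Of the 50 genes, 32 were higher and 3 lower with GATA2, where 14.7% of all genes were higher and 16% lower. With R307W, 34 were higher and 2 lower, where 16.5% of all genes were higher and 17% lower. With T354M, 27 were higher and 3 lower, where 18.6% of all genes were higher and 18.4% lower. Median log2 differences were 1.09, 1.23 and 0.93 with GATA2, R307W and T354M. These comparisons share the WT control libraries. When single libraries were left out, the genes called in all numbered 23 to 39 with GATA2, 30 to 38 with R307W and 20 to 36 with T354M. The shares of all genes called were 26.5% to 31.5%, 29% to 33.2% and 32.2% to 36.5%. The count with GATA2 was 23 without WT replicate 1, WT replicate 3 or GATA2 replicate 3. The shares of all genes called were then 29.7%, 29.1% and 26.6%. The count with T354M was 20 of 50 without T354M replicate 2, where 33.8% of all genes were called. Without WT replicate 4 it was 22 of 50, where 34.7% were called.

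Ly6e was 3.197-fold, 3.604-fold and 3.03-fold above WT controls with GATA2, R307W and T354M (adjusted p = 3.96e-09, 1.3e-09 and 2.57e-09). Psmb8 was 3.09-fold, 3.51-fold and 3.21-fold above them (adjusted p = 2.45e-08, 4.96e-09 and 5.77e-09). Adar, by contrast, was not called in any vector group against WT controls, at log2 differences of 0.17, 0.19 and 0.07. Isg20 was lower than in WT controls in all 3 groups, at -1.40, -1.56 and -2.15 on the log2 scale, and so was Pml, at -0.59, -0.49 and -0.51. The third gene below WT controls was Ifi27, with GATA2 (-0.61) and T354M (-0.88).

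The signalling genes upstream of the effectors were partly of the same direction. The transcription factor genes Stat2, Irf9, Irf1 and Irf7 each rose in -77KO controls against WT controls and fell with each vector against -77KO controls. Irf7, the factor that amplifies type I interferon production, had log2 differences of -1.45 with GATA2, -1.16 with R307W and -1.66 with T354M against -77KO controls, and of 2.75 in -77KO controls against WT controls. Stat2 had -0.86, -0.79 and -0.88 with GATA2, R307W and T354M against -77KO controls, and 1.38 in -77KO controls against WT controls. Of 9 receptor and kinase genes, 6 rose and 2 fell in -77KO controls. The receptor subunit genes Ifnar1 and Ifnar2 rose by 1.26 and 1.60, and the kinase gene Jak2 fell by 0.49 on the log2 scale. With each vector 4 of the 9 fell, Ifnar1, Ifnar2, Ifngr2 and Il10rb, and Jak2 rose with GATA2 and R307W. Among 6 feedback inhibitor genes, 4 rose in -77KO controls, namely Ptpn1, Ptpn6, Socs1 and Socs3.

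None of 21 interferon ligand genes passed the filter on low counts. Their counts summed over the 4 libraries of a group were 23 with GATA2, 17 with R307W, 21 with T354M, 30 in -77KO controls and 27 in WT controls, and the highest level in any library was 0.284 CPM. A difference in ligand transcripts was not detectable at this depth.

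Monocyte, macrophage and most dendritic cell markers moved in the same directions as most of the effectors. In -77KO controls against WT controls most markers of other myeloid cells did not, as 7 of 12 neutrophil markers, all 8 for eosinophils and all 11 for basophils and mast cells fell. Against -77KO controls, more neutrophil markers fell than rose with GATA2. As many fell as rose with R307W, and more rose than fell with T354M. The shared direction was not limited to monocyte, macrophage and dendritic cell lists. Most lymphoid markers tested also rose in -77KO controls against WT controls and fell with each vector. More endothelial and stromal markers rose than fell in the first comparison, and more fell than rose with each vector. All 16 monocyte and macrophage markers rose in -77KO controls against WT controls, and with GATA2, R307W and T354M 12, 10 and 10 of them fell against -77KO controls. Their summed level was 1243 to 3804 CPM with GATA2, 1193 to 3845 with R307W, 1358 to 4617 with T354M, 5797 to 6385 in -77KO controls and 1350 to 2903 in WT controls. Of 11 conventional dendritic cell and MHC class II markers tested, 9 rose and 2, Zbtb46 and Clec9a, fell in -77KO controls. With GATA2, R307W and T354M 8, 7 and 9 of them fell, and Zbtb46 rose with GATA2. Their sums were 84.8 to 210.6 CPM with GATA2, 68.1 to 174.4 with R307W, 76.2 to 194.6 with T354M, 249.7 to 438.3 in -77KO controls and 49.3 to 59.9 in WT controls. All 7 plasmacytoid dendritic cell markers tested rose in -77KO controls, and 7, 4 and 7 of them fell with GATA2, R307W and T354M. Bst2, itself among the 50 effector genes, is in this list and in its sums. Klk1 of that list was at 0 counts in -77KO controls. The sums of that list were 37.5 to 67.3 CPM with GATA2, 35.96 to 70.5 with R307W, 36.6 to 73.5 with T354M, 93.9 to 111.5 in -77KO controls and 37.7 to 44.3 in WT controls. The 11 hepatocyte markers had median log2 differences of -0.62 with GATA2 against -77KO controls and -0.82 in -77KO controls against WT controls, with no marker called. The part of these cell types in the effector gene differences was not tested, and more cells of a type and more RNA per cell cannot be told apart in bulk samples.

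Replicate 4 of each vector group was also low for these markers. The monocyte and macrophage sum was 1243 CPM in replicate 4 with GATA2, against 2667 to 3804 in its other replicates. It was 1193 against 2872 to 3845 with R307W, and 1358 against 2628 to 4617 with T354M. The hepatocyte sum was 369.8 against 766 to 1622 CPM with GATA2, 175.4 against 600.4 to 1337 with R307W and 371.2 against 597.8 to 1769 with T354M. In -77KO controls replicate 4 had 6162 CPM for the monocyte and macrophage markers, within the 5797 to 6385 of the others, and the lowest hepatocyte sum, 795.6 against 1126 to 2174 CPM. Their part in the low effector gene values of these libraries was not tested.

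**Figure D5:**
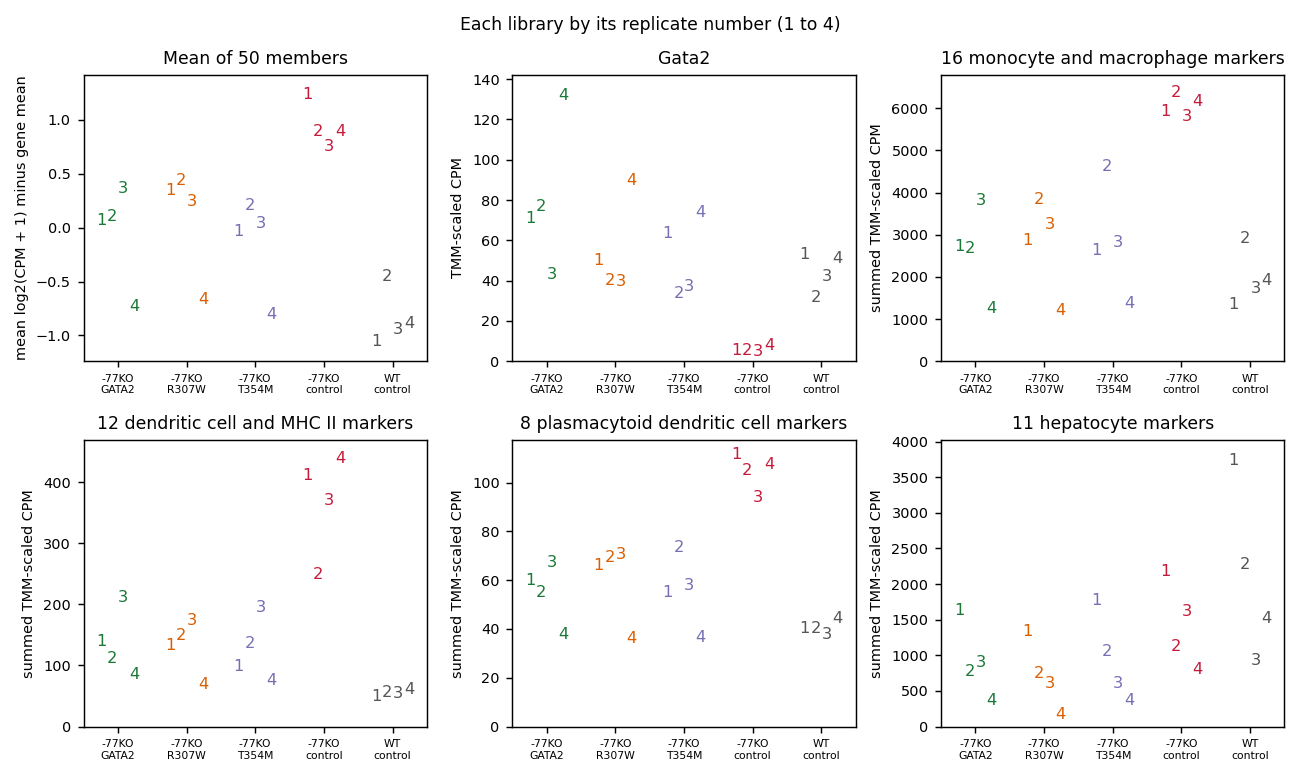
Each library shown by its replicate number in the 5 groups, for the mean of the 50 genes (log2(CPM + 1) minus gene mean), Gata2 and summed marker lists (CPM). Replicate 4 of each vector group is lowest for the effector genes (-0.73 with GATA2, -0.66 with R307W and -0.81 with T354M) and highest for Gata2, and the -77KO controls are highest for the effector genes and the monocyte and macrophage markers.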

How the data were processed

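RNA-seq gene tables of 20 libraries were used, 4 in each of 5 groups assigned from the labels. Libraries came from total RNA by a NuGEN Ovation protocol, per the labels. The submitters' processing notes name STAR 2.5.2b, RSEM 1.3.0 and mm10; the annotation release and strand setting are not given in the sources used here. The deposited tables hold expected counts and TPM per gene, made by the authors. The expected counts were rounded. Identifiers were matched without version to GENCODE M21, and 53274 of 53379 had a symbol.

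Genes passing filterByExpr (15835) were normalised by TMM and tested with edgeR 4.0.16 (R 4.3.3) in 1 quasi-likelihood fit over all 20 libraries with 5 group means, which left 15 residual degrees of freedom. Adjustment was by Benjamini-Hochberg over all genes tested, and a gene with an adjusted p under 0.05 was called. Standard errors are the log2 difference divided by the square root of F. Values of a gene between libraries are TMM-scaled CPM, and levels between genes are TPM. Alternatives were DESeq2 1.42.0, limma 3.58.1 on log2(TPM + 1), DESeq2 size factors, no filter, nuclear protein-coding genes alone, the 8 libraries of a comparison alone, a 2-fold minimum, a replicate block and leaving out libraries.

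The 50 genes, their role classes and the pathway and marker lists were chosen with earlier results of these data known, and the progenitor markers were added later. One gene of the pathway lists is not reported here. Genes given in every library were the 2 (1 in classes of 3) with the lowest adjusted p for enhancer loss in each role class, every gene not called or lower there, and any called between vectors. Same-numbered libraries correlated in their deviations from group means at 0.124 to 0.300 between GATA2 and -77KO controls. Among the vector groups they correlated at 0.159 to 0.667, and every such pair was above 0.1. The library of the same number was the best partner for 4 of 4 libraries between GATA2 and -77KO controls. It was the best for 3 of 4 in each comparison among the vector groups. The block thus follows a partial pairing in the data that the labels do not state. Replicates differed by 16.7 to 108 times counting noise (chi-square per degree of freedom), so no pair agreed within sampling noise; this does not show that they were separate cultures. Lists not described in the text, neutrophil, eosinophil, mast cell and basophil, erythroid, megakaryocyte, lymphoid, endothelial and stromal, are under the other observations.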

Additional observations from a re-analysis of the deposited data

Results flagged for a closer look

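In 6 of 95 groups of 4 libraries checked among the named genes, 1 library lay far from the other 3; chance gives about 1 in 20 groups. Usp18 in -77KO controls had 44.49 CPM in replicate 1, against 26.97 to 28.6 CPM in the other 3. Parp14 with R307W had 27.09 CPM in replicate 4, against 77.35 to 86.98 CPM in the others. Ifi35 with R307W had 29.84 CPM in replicate 2, against 21.62 to 22.99 CPM in the others. In WT controls replicate 2 stood above the others for Trim30a (52.86 against 26.86 to 29.34 CPM), Parp12 (15.07 against 8.478 to 9.482 CPM) and Ifi44 (0.3927 against 0.2174 to 0.2347 CPM).

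Isg20 was the single gene of the 50 with a called difference between vectors in the fit without a replicate block, being lower with T354M than with GATA2 (log2 difference -0.752, edgeR adjusted p = 0.0472). The effect of T354M against -77KO controls was thus tested directly against that of GATA2 for this gene.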

How the results depend on the processing

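Requiring at least a 2-fold difference left 22 genes called with GATA2, 11 with R307W and 24 with T354M against -77KO controls, and 0 with T354M against GATA2. The share of all genes passing that rule was not counted. With T354M against GATA2 the count was also 0 in an unfiltered fit, with the 8 libraries alone, with limma on log2(TPM + 1), and without the 4th library of every group. The shares of all genes called there were 3.42%, 7.78%, 6.91% and 6.41%. Limma on log2(TPM + 1) called 9 genes with R307W against -77KO controls, where 12.2% of all genes were called. It called 22 with GATA2 against WT controls, where 25.7% were, and the causes were not tested. A replicate block over 20 libraries gave 42 with R307W against -77KO controls and 1 with R307W against T354M. It called 25.9% and 5.61% of all genes there. A block over the 16 -77KO libraries gave 46, 4 and, with T354M against GATA2, 3. The shares of all genes were then 34.5%, 8.53% and 18.7%. Same-numbered R307W and -77KO control libraries correlated at 0.311, 0.019, 0.199 and 0.271 for replicates 1 to 4. Replicate 2 thus fell below 0.1, unlike any same-numbered pair of GATA2 and -77KO controls. The block changed no other count by over 1.5 times. DESeq2's Wald test called 1 gene with R307W against T354M, where 4.9% of all genes were called.

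Leaving out each library in turn gave 45 to 47 genes in -77KO controls against WT controls, where 38.8% to 42.9% of all genes were called. Against -77KO controls it gave 7 to 39 with GATA2, 4 to 23 with R307W and 19 to 45 with T354M. The shares of all genes there were 9.77% to 21%, 7.91% to 18.4% and 8.68% to 19%. Against WT controls it gave 23 to 39, 30 to 38 and 20 to 36. The shares there were 26.5% to 31.5%, 29% to 33.2% and 32.2% to 36.5%. Between vectors it gave 0 to 0 with R307W against GATA2, 0 to 1 with T354M against GATA2 and 0 to 0 with R307W against T354M. Leaving aside the 2-fold minimum, which is a stricter call rule, 43 of 47, 7 of 36, 2 of 25 and 18 of 43 calls held in every other setting for enhancer loss, GATA2, R307W and T354M, and 47, 47, 47 and 48 of the 50 genes kept their sign. Oas1b and Mx2, listed as pseudogenes, were not tested among nuclear protein-coding genes alone. These counts therefore leave them out, although both kept their sign in every setting that tested them.

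Small uncalled differences changed sign. Ifi27 in -77KO controls against WT controls was 0.01 with no filter, 0.09 with limma on TPM, 0.06 and 0.02 without -77KO control replicates 2 and 3, and 0.15 without WT replicate 3, over a range of -0.15 to 0.15 when single libraries were left out. Isg20 with GATA2 against -77KO controls was 0.09 without -77KO control replicate 4, and 0.03 and 0.02 without GATA2 replicates 1 and 3, over a range of -0.20 to 0.09. Ly6e with R307W against -77KO controls was -0.03 without R307W replicate 4.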

Other observations

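The other lists of cell type markers moved in several directions in the same libraries. In -77KO controls against WT controls (edgeR, adjusted p under 0.05), all 11 mast cell and basophil, all 8 eosinophil, all 11 matched erythroid and all 8 megakaryocyte markers fell, as did 7 of 12 neutrophil markers, while 1 neutrophil marker rose. Of 4 lymphoid markers tested 3 rose, and of 10 endothelial and stromal markers 3 rose and 1 fell. Against -77KO controls, 10 mast cell and basophil markers rose with GATA2, 7 with R307W and 7 with T354M, and 8, 8 and 7 eosinophil markers rose. Erythroid markers rose for 6 genes with GATA2, 5 with R307W and 1 with T354M, and fell for 1, 2 and 5. Megakaryocyte markers fell for 1, 4 and 4 genes and rose for 1, 0 and 0, and neutrophil markers rose for 2, 3 and 5 and fell for 6, 3 and 1. Lymphoid markers fell for 3, 3 and 4 genes and rose for 1, 0 and 0, and endothelial and stromal markers fell for 6, 6 and 6 and rose for 1, 1 and 1.

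A pair of other motifs was searched in the same RefSeq promoter windows, on both strands. The STAT letters TTCNNNGAA, which read the same on both strands, occurred in 8 of the 37 genes (21.6%), against 9.55% of 27025 genes. The GATA letters AGATAA, or TTATCT on the other strand, occurred in 4 of the 37 (10.8%), against 12.7% of all genes.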
